A study of Mus musculus with 18 samples.

Results

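The insulin-like growth factor (IGF) system was followed in the left ventricle of mice whose hearts were enlarging with pregnancy or with running. The genes were 9 named members of that system, namely the ligands Igf1 and Igf2, the receptors Igf1r and Igf2r, and the carriers Igfbp3, Igfbp4, Igfbp5, Igfbp6 and Igfbp7. A probe set was taken for a member where the platform annotation gave it that symbol and no other. By this rule the 9 members held 27 probe sets of the 45037 tested, and they are 9 of the 18193 genes with a probe set of their own. Each member had at least 1 such probe set.

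The arrays hold left ventricular RNA of wild type female C57Bl/6 mice aged 3 to 4 months, in 6 groups of 3 arrays. NP/Sed was the sedentary, non-pregnant control in diestrus. The 7EX and 21EX groups had run voluntarily on a wheel for 7 and 21 days. The MP group was taken at day 11 of pregnancy, LP was taken between days 18 and 19, and 0PP no later than 12 hours after birth. Each array carried RNA pooled in equal amounts from 2 to 3 hearts, so the spread between arrays is that between pools, and the non-pregnant control is also the control of the exercise groups. Values are log2 RMA values, in which 1 unit is a doubling, and they are set between groups for 1 probe set at a time and never between probe sets.

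IGF1 and IGF2 are secreted peptides that promote growth and survival of many cell types, and IGF1 signaling through its receptor is a known route of physiological heart growth. IGF1R is a receptor tyrosine kinase of the insulin receptor family, while IGF2R binds IGF2 without such a kinase, carries it to lysosomes and also transports mannose 6-phosphate-tagged enzymes. Most IGF outside cells is bound to IGF-binding proteins, which prolong its life and hold it away from, or deliver it to, the receptor. IGFBP7 binds IGF weakly and is abundant in vessel walls and extracellular matrix.

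The 8 cardiomyocyte markers had a mean level of 14.12 to 14.19 in all 18 arrays, which fits the labelled tissue, and 0 of them passed by limma in any comparison, with at most 2 at an unadjusted p under 0.05 in any 1 of them. Other cell types differed more. The mean of the 8 macrophage markers was 7.84 to 8.09 in NP/Sed and 8.42 to 8.64 in MP. There 7 of 8 rose, beside 1.15% of all genes that passed in either direction. It was above all controls in the other groups too, at 8.17 to 8.39 in the exercise arrays and 8.26 to 8.61 in LP and 0PP. The mean of 3 erythroid markers was 4.82 to 4.91 in NP/Sed and 5.37 to 6.12 in MP, and that of 4 adipocyte markers 4.14 to 4.51 and 4.77 to 5.48. Each of these lists named 6 genes, of which only those had a probe set of their own. In MP Alas2 and Slc4a1 of the erythroid markers rose, and of the adipocyte markers Adipoq alone. Adipoq, Slc4a1, Lep, Hba-a1 and Cidec had means of 4.85, 4.12, 3.77, 3.55 and 3.42 over the 18 arrays, below every array median. The 3' minus 5' signal of the Gapdh and beta-actin control probe sets is a sign of RNA integrity. It lay between 0.51 and 0.60 in the 6 exercise arrays and between 0.58 and 0.71 in the 9 arrays of MP, LP and 0PP. In NP/Sed it was 0.52 to 0.73, which spans most of both ranges. MP, at 0.67 to 0.71, did not overlap LP, at 0.58 to 0.63. The array medians ran from 4.934 to 5.024. The ventricle was profiled whole, so fewer cells of a type and less RNA per cell cannot be told apart in any result that follows.

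Of the 9 members, 4 differed among the 6 groups in the moderated F-test of limma, beside 7.5% of all genes. Igfbp7 had an adjusted p of 0.00112, Igfbp3 of 0.00161, Igf1 of 0.00938 and Igfbp5 of 0.0303. By group mean Igfbp3 was highest in LP, where Igf1 and Igfbp7 were lowest, while Igf1 and Igfbp5 were highest in MP. At its probe set of highest mean Igf1 differed from NP/Sed by 0.43 in MP and by -0.20 in LP, and neither passed. A member is said to rise or fall where its adjusted p in that comparison was under 0.05, and the errors given with differences are standard errors.

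**Figure D1:**
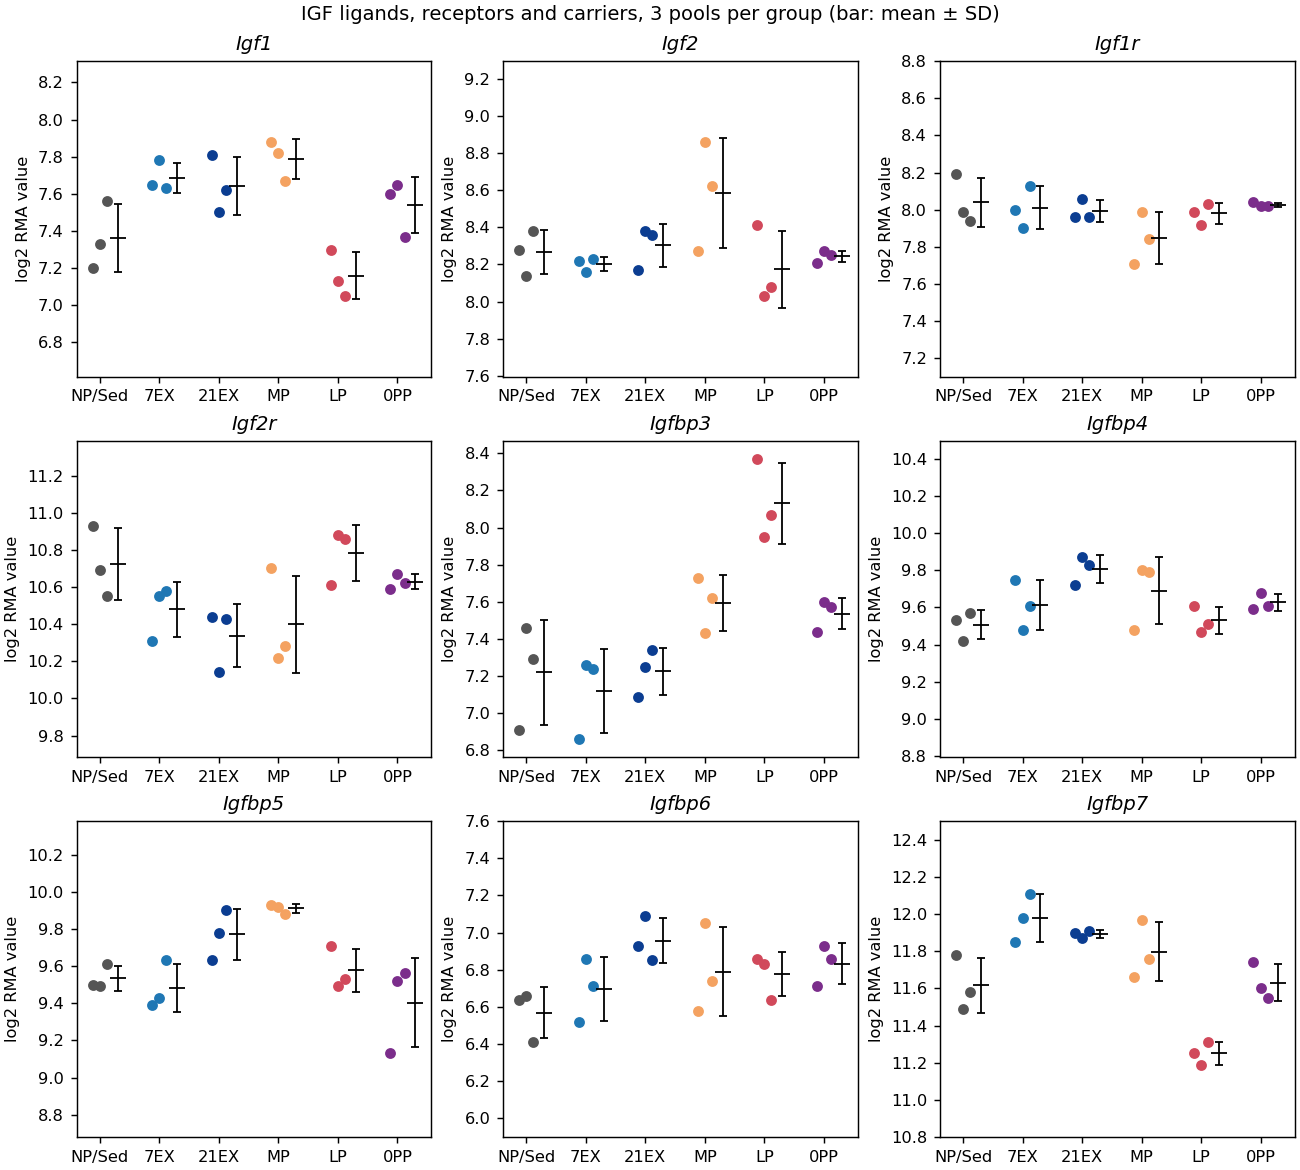
Log2 RMA value (vertical axes, each spanning the same range) of each member in each of the 18 arrays, by group (horizontal axes), for the probe set of highest mean. Points are arrays, and the bar beside them is the mean and SD of the 3 arrays. LP holds the highest Igfbp3 values, 7.95 to 8.37, and the lowest Igfbp7 values, 11.19 to 11.31.

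Igf1, the main growth-promoting ligand of the adult, had values of 7.20, 7.33 and 7.56 in NP/Sed. They were 7.65, 7.78 and 7.63 in 7EX and 7.81, 7.50 and 7.62 in 21EX. They were 7.88, 7.82 and 7.67 in MP, 7.30, 7.13 and 7.05 in LP, and 7.60, 7.65 and 7.37 in 0PP. All MP arrays were above all NP/Sed arrays, all LP arrays were below all MP and 0PP arrays, and LP overlapped NP/Sed. By group mean the order from lowest was LP, NP/Sed, 0PP, 21EX, 7EX and MP, and every pair of neighbours in that order overlapped. The promoter of Igf1 is shown because it is 1 of the 3 members that passed in a comparison at their main probe set. It is the RefSeq sequence of the 250 bases before the listed start, GRCm38.p6 chr10:87860861-87861110, plus strand, with capitals marking AGGTCA, an estrogen receptor half-site.
Igf1: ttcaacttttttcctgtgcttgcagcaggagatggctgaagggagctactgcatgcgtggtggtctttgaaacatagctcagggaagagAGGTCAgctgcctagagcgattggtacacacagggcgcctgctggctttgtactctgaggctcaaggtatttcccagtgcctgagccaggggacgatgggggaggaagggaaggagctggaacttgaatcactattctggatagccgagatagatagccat

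Short motifs, 5 in all, were searched on both strands of all 32851 such windows, and capitals mark them here and in the sequences that follow. AGGTCA was present in 14.0% of the windows, the GC box GGGCGG in 32.7%, the TATA box TATAAA in 12.4%, TGTTCT, a half-site of the glucocorticoid and progesterone receptors, in 16.1%, and the E-box CACGTG in 6.02%. The Igf1 window held AGGTCA once and none of the others. These are matches of letters only.

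From MP to LP Igf1 fell by 0.63 ± 0.11 (adjusted p = 0.0054). It was 1 of 2 members that fell in this step, and 1.91% of all genes passed in it in either direction. The median difference in this step was -0.16 over the 9 members and -0.02 over all genes. The call was kept without any 1 of the 18 arrays (adjusted p 0.00421 to 0.034), and the adjusted p was 0.0554 when only MP and LP were fitted. The other probe sets of Igf1 also had lower values in LP than in MP: 1437401_at fell by 0.68 ± 0.13 (adjusted p = 0.0106), while 1452014_a_at differed by -0.37 ± 0.13 (adjusted p = 0.182) and 1419519_at by -0.25 ± 0.11 (adjusted p = 0.298). The mean of the macrophage markers, cells that can make IGF1, was 8.42 to 8.64 in MP and 8.26 to 8.61 in LP, and that of the fibroblast markers 10.11 to 10.33 and 9.82 to 9.93. Erythroid markers, as a mean, were at 4.55 to 4.85 in LP beside 5.37 to 6.12 in MP. Their part in the result was not tested.

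Against NP/Sed the Igf1 probe set of highest mean did not pass in any group. The nearest was MP, with a difference of 0.43 ± 0.11 (adjusted p = 0.06, 95% interval 0.20 to 0.65), and 7EX followed with 0.33 ± 0.11 (adjusted p = 0.175). In MP the probe set 1437401_at read 7.50, 7.64 and 7.53, beside 6.85, 6.75 and 7.22 in NP/Sed. The MP arrays lay above the controls without overlap, and this probe set rose by 0.62 ± 0.13 (adjusted p = 0.0254). The remaining probe sets overlapped the controls in MP, with differences of 0.16 ± 0.11 at 1419519_at (adjusted p = 0.555) and 0.16 ± 0.13 at 1452014_a_at (adjusted p = 0.641). After birth the main probe set stood 0.38 ± 0.11 above LP (adjusted p = 0.134). The pregnancy and exercise groups, as the mean of MP, LP and 0PP against the mean of 7EX and 21EX, differed by -0.17 ± 0.07 (adjusted p = 0.262, 95% interval -0.31 to -0.02).

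Igf2, the ligand best known from fetal growth, had values of 8.28, 8.14 and 8.38 in NP/Sed and 8.27, 8.86 and 8.62 in MP. The first MP array lay within the control range and the other MP arrays lay above every array of the other groups. The difference in MP was 0.32 ± 0.12 (adjusted p = 0.221), and from MP to LP it was -0.41 ± 0.12 (adjusted p = 0.112). Without array 1 of MP, Igf2 and Igf2r passed both in MP against NP/Sed and in LP against MP. Outside MP its group means lay between 8.18 and 8.30, and every pair of neighbours in the order of means overlapped. The other Igf2 probe set, 1415931_at, had no difference from NP/Sed beyond -0.17, with 95% intervals reaching from -0.50 to 0.31.

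Igf1r, the receptor through which both ligands signal, showed at its probe set of highest mean the narrowest range of group means of the 9 members. The means ran from 7.85 in MP to 8.04 in NP/Sed, and all neighbours in that order overlapped. None of its 9 comparisons passed, and their 95% intervals reached from -0.37 to 0.31. At the other probe sets MP was also below NP/Sed, by up to -0.42 ± 0.16 at 1428967_at (adjusted p = 0.204), where the interval reached -0.75. At 1426565_at the MP difference was -0.28 ± 0.12 (adjusted p = 0.255). Of these other 4 probe sets 1 passed once. This was 1452108_at, with 5.06, 5.28 and 5.16 in 21EX and 5.51, 5.70 and 5.37 in NP/Sed. All 21EX arrays were below the controls, and it fell by 0.36 ± 0.09 (adjusted p = 0.043), while the probe set of highest mean differed by less than its error in the same comparison.

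Igf2r, the clearance receptor of IGF2, gave opposite signs at its 2 probe sets against NP/Sed in every group other than LP. At the probe set of highest mean, 1424112_at, values were 10.93, 10.69 and 10.55 in NP/Sed and 10.44, 10.14 and 10.43 in 21EX. The 21EX arrays were all lower, with a difference of -0.38 ± 0.13 (adjusted p = 0.0997). At 1424111_at values were 8.37, 8.28 and 8.21 in NP/Sed, 8.56, 8.65 and 8.51 in 21EX, and 8.60, 8.57 and 8.55 in LP. Both groups were above the controls without overlap, and this probe set rose by 0.29 ± 0.07 in 21EX (adjusted p = 0.036) and by 0.29 ± 0.07 in LP (adjusted p = 0.0402). In LP the main probe set differed from NP/Sed by 0.06 ± 0.13 (adjusted p = 0.894). From MP to LP both probe sets had higher values, by 0.38 ± 0.13 at 1424112_at (adjusted p = 0.159) and 0.23 ± 0.07 at 1424111_at (adjusted p = 0.115), and the mean of both probe sets passed in that step. No direction is therefore given for Igf2r in running mice.

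Igfbp3, the main carrier of IGF in blood, made in tissues partly by endothelial cells, showed the largest difference of the 9 members. Its upstream window is shown beside that of Igfbp7 further on because in LP Igfbp3 had its highest group mean and Igfbp7 its lowest. The Igfbp3 window is GRCm38.p6 chr11:7213924-7214173, minus strand, and held none of the 5 motifs.
Igfbp3: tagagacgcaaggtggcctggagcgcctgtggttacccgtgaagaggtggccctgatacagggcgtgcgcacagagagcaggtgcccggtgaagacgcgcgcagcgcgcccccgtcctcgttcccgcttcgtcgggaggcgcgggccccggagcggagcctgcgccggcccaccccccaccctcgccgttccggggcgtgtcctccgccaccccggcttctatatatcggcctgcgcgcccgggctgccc

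In NP/Sed Igfbp3 read 6.91, 7.46 and 7.29, in 7EX 6.86, 7.26 and 7.24, and in 21EX 7.09, 7.25 and 7.34. In MP it read 7.73, 7.43 and 7.62, in LP 8.37, 7.95 and 8.07, and in 0PP 7.44, 7.60 and 7.57. LP was above every array of the other groups, and 0PP and MP overlapped each other. The exercise arrays overlapped the controls at this probe set. At the second one, 1458268_s_at, 7EX read 6.92, 7.15 and 7.04, below all controls (7.28, 7.43 and 7.40), with a difference of -0.33 ± 0.11 (adjusted p = 0.16), and 21EX differed by -0.17 ± 0.11 (adjusted p = 0.405). In order of means, 21EX and 0PP did not overlap, nor did MP and LP, while the other neighbours overlapped.

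In LP Igfbp3 rose by 0.91 ± 0.14 over NP/Sed (adjusted p = 0.00227, 95% interval 0.62 to 1.20). It was the only member of 9 to pass in LP, beside 2.36% of all genes, and it also exceeded 0.807, the log2 size of the smallest change the study accepted, beside 0.363% of all genes. The second probe set read 8.17, 7.93 and 8.02 in LP, above all controls, and it rose by 0.67 ± 0.11 (adjusted p = 0.00293), which is under that limit. The call at the main probe set was kept without any 1 array, with differences of 0.75 to 1.03. The endothelial marker mean was 9.13 to 9.28 in LP and 9.04 to 9.33 in NP/Sed, and of its 8 genes only Fabp4 rose. The macrophage marker mean was 8.26 to 8.61 in LP and 7.84 to 8.09 in NP/Sed, where 2 of 8 rose, and the fibroblast marker mean 9.82 to 9.93 and 9.96 to 10.14, where Col3a1 fell. Neither list overlapped between these groups, and their part in the result was not tested.

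From MP to LP the Igfbp3 difference was 0.54 ± 0.14 at the main probe set (adjusted p = 0.0656), and 1458268_s_at rose by 0.49 ± 0.11 (adjusted p = 0.0276). After birth Igfbp3 fell by 0.60 ± 0.14 from LP to 0PP (adjusted p = 0.0496). It was the only member that passed in this step, beside 1.33% of all genes. The call sat at the threshold: without each array in turn it was lost 14 times of 18, with a highest adjusted p of 0.193, and at 1458268_s_at the difference was -0.45 ± 0.11 (adjusted p = 0.0535). In 0PP Igfbp3 still stood 0.31 ± 0.14 above NP/Sed (adjusted p = 0.251, 95% interval 0.02 to 0.60).

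Over the pregnancy groups together Igfbp3 ran from 7.43 to 8.37 with a median of 7.62 in 9 arrays, and over the exercise groups from 6.86 to 7.34 with a median of 7.24 in 6 arrays. At this main probe set every pregnancy array was above every exercise array, as in 1.19% of all genes in either direction. At 1458268_s_at the groups overlapped, with 21EX array 2 at 7.48 and MP array 2 at 7.43. The direct comparison gave 0.58 ± 0.09 (adjusted p = 0.00103), and 0.61 ± 0.07 at the second probe set (adjusted p = 4.1e-05). With Igfbp7, which fell, it was 1 of 2 members to pass, beside 4.08% of all genes. The difference was 0.39 ± 0.10 with LP left out of the mean (adjusted p = 0.0648) and 0.34 ± 0.12 once the 3' minus 5' signal was added to the fit (adjusted p = 0.292). The part of the 3' minus 5' signal in the result was not tested beyond this.

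**Figure D2:**
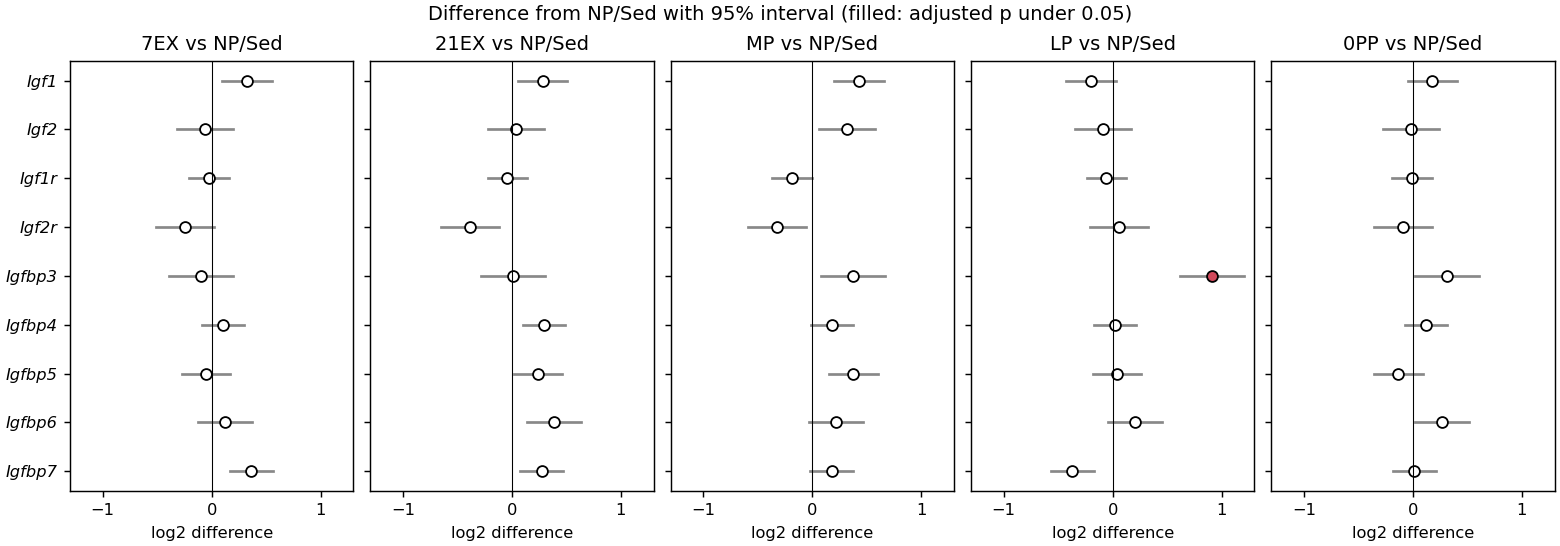
Log2 difference (horizontal axes) of each member from NP/Sed in the 5 other groups, for the probe set of highest mean. Circles are differences between means of 3 arrays, lines are 95% intervals, and filled circles have an adjusted p under 0.05, which holds for Igfbp3 in LP at 0.91 alone.

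Against NP/Sed, 0 of 9 members passed in 7EX, beside 0.797% of all genes, and 2 had an unadjusted p under 0.05 by limma. In 21EX 0 of 9 passed, beside 2.67%, and 6 had an unadjusted p under 0.05. In MP 0 of 9 passed, beside 1.15%, and 6 had an unadjusted p under 0.05. In 0PP 0 of 9 passed, beside 2.7%, and 2 had an unadjusted p under 0.05. A test in the style of Cyber-T, the tool of the study, gave 1, 2, 2 and 0 members in these comparisons, which were Igfbp7 in 7EX, Igf2r and Igfbp6 in 21EX, and Igf1 and Igfbp5 in MP. The median difference of the 9 members was 0.24 in 21EX and 0.22 in MP, beside 0.04 and 0.03 over all genes, and it was within 0.03 of 0 in 7EX, LP and 0PP. Between 21EX and 7EX 0 of 9 members passed, beside 0.0055% of all genes, 3 had an unadjusted p under 0.05, and the Cyber-T style test gave 0. The percentages here are those of limma at an adjusted p under 0.05. No share of all genes was taken at an unadjusted p under 0.05 or for the Cyber-T style test. Those counts of members are therefore not read as a result about the members. The member medians were 0.10 between 21EX and 7EX, 0.06 between 0PP and LP and -0.03 between pregnancy and exercise, beside 0.01, 0.00 and -0.01 over all genes.

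Groups that did not overlap were common among all genes and are counted here for the members at their main probe sets. Against NP/Sed, 2 members did not overlap in 7EX, beside 18.4% of all genes, and 5 did not in 21EX, beside 24.7%. In MP there were 2 such members, beside 18.1%, in LP 2, beside 18.7%, and in 0PP 2, beside 23.5%. Between LP and MP there were 4, beside 23.5%, between 0PP and LP 3, beside 18.6%, and between 21EX and 7EX only Igfbp5, beside 15.2%. The 5 in 21EX were Igfbp4, Igfbp5, Igfbp6 and Igfbp7, which were higher, and Igf2r. Igf2r was lower at its main probe set but higher at 1424111_at, each without overlap.

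Over the 27 probe sets the calls were as follows, beside the share of all 45037 probe sets that passed. Against NP/Sed, 0 passed in 7EX, beside 0.659%, 2 in 21EX, beside 2.75%, and 1 in MP, beside 1.16%. In LP 4 passed, beside 1.67%, and these were both Igfbp3 probe sets and 1 each of Igf2r and Igfbp7. In 0PP 0 passed, beside 1.98%, and between 21EX and 7EX 0, beside 0.00222%. Between LP and MP 5 passed, beside 1.4%, between 0PP and LP 2, beside 0.884%, and between pregnancy and exercise 3, beside 2.96%. The probe sets of a member share their target, so these are not independent counts.

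Igfbp4, a carrier that mostly restrains IGF action, read 9.72, 9.87 and 9.83 in 21EX and 9.53, 9.42 and 9.57 in NP/Sed. The 21EX arrays were all higher, but the difference of 0.30 ± 0.09 did not pass (adjusted p = 0.0817). Of its other 5 probe sets, 1437406_x_at and 1423756_s_at each differed by 0.33 ± 0.10 in 21EX (adjusted p = 0.0811 and 0.0832). The others gave smaller differences, of 0.16 ± 0.09 at 1421992_a_at (adjusted p = 0.331), 0.15 ± 0.09 at 1423757_x_at (adjusted p = 0.407) and -0.05 ± 0.11 at 1421991_a_at (adjusted p = 0.86). Over all comparisons the lowest adjusted p of the main probe set was that in 21EX.

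Igfbp5, the most conserved of these carriers, which is held in extracellular matrix, differed among the groups by the F-test but in no single comparison. It read 9.93, 9.92 and 9.88 in MP and 9.50, 9.49 and 9.61 in NP/Sed. MP was above the controls, LP and 0PP without overlap, and it overlapped 21EX, which read 9.63, 9.78 and 9.90. The MP difference was 0.38 ± 0.11 (adjusted p = 0.0883), and LP against MP gave -0.34 ± 0.11 (adjusted p = 0.134). At its second probe set, 1422313_a_at, the MP difference was 0.07 ± 0.10 (adjusted p = 0.827), and LP against MP gave 0.00 ± 0.10, so the pattern rests on 1452114_s_at.

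Igfbp6, a carrier that prefers IGF2, had a single probe set. It read 6.93, 7.09 and 6.85 in 21EX and 6.64, 6.66 and 6.41 in NP/Sed. The groups did not overlap, and the difference of 0.39 ± 0.12 did not pass (adjusted p = 0.0792). All 5 other groups had a higher mean than NP/Sed, by 0.13 to 0.39, and every pair of neighbours in the order of means overlapped.

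Igfbp7, the matrix and vessel wall member, had its lowest group mean in LP, where Igfbp3 had its highest. Neither LP against NP/Sed nor LP against MP passed for both carriers at their main probe sets. The upstream window of Igfbp7 is GRCm38.p6 chr5:77408046-77408295, minus strand, and held the GC box 4 times and none of the other motifs. The window had a GC content of 74.0%, beside 73.2% in that of Igfbp3 and 52.8% in that of Igf1.
Igfbp7: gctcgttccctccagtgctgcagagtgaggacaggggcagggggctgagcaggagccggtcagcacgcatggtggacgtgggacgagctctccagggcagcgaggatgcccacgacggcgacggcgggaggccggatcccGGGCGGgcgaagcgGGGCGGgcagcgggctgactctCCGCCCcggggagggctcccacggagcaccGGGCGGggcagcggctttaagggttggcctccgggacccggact

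In NP/Sed Igfbp7 read 11.78, 11.49 and 11.58, in 7EX 11.85, 11.98 and 12.11, and in 21EX 11.90, 11.87 and 11.91. In MP it read 11.66, 11.97 and 11.76, in LP 11.25, 11.19 and 11.31, and in 0PP 11.74, 11.60 and 11.55. LP was below every array of the other groups, and both exercise groups were above all controls. In order of means LP, NP/Sed, 0PP, MP, 21EX and 7EX, only LP and NP/Sed did not overlap.

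From MP to LP Igfbp7 fell by 0.55 ± 0.09 (adjusted p = 0.0054), and 1423585_at fell by 0.55 ± 0.10 (adjusted p = 0.00771). The third probe set, 1437804_at, differed by -0.15 ± 0.08 (adjusted p = 0.462). Without any 1 array the main call was kept (adjusted p 0.00385 to 0.0318), and it was 0.0699 when only MP and LP were fitted. Against NP/Sed the LP difference was -0.37 ± 0.09 (adjusted p = 0.0525), and 1423585_at fell by 0.44 ± 0.10 (adjusted p = 0.0295). After birth 1423585_at rose by 0.48 ± 0.10 over LP (adjusted p = 0.0249), and the main probe set differed by 0.38 ± 0.09 (adjusted p = 0.0665). At 1437804_at the differences were -0.11 ± 0.08 in LP against NP/Sed (adjusted p = 0.614) and 0.02 ± 0.08 after birth (adjusted p = 0.96), so these movements rest on the other probe sets.

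In 7EX Igfbp7 stood 0.36 ± 0.09 above NP/Sed (adjusted p = 0.0818) and in 21EX 0.27 ± 0.09 (adjusted p = 0.115). In the pregnancy groups Igfbp7 fell by 0.38 ± 0.06 against the exercise groups (adjusted p = 0.00126). Their 9 arrays ran from 11.19 to 11.97 with a median of 11.60, and the 6 exercise arrays from 11.85 to 12.11 with a median of 11.90, so 1 MP array overlapped the exercise range. At 1423585_at the difference was -0.23 ± 0.06 (adjusted p = 0.0675), and at 1437804_at it was -0.08 ± 0.05 (adjusted p = 0.603). It was -0.22 ± 0.07 at the main probe set with LP left out of the mean (adjusted p = 0.129) and -0.27 ± 0.09 with the 3' minus 5' covariate (adjusted p = 0.239).

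The mean of the 8 fibroblast markers was, like Igfbp7, lowest in LP. Their mean level was 9.82 to 9.93 in LP, 10.11 to 10.33 in MP, 10.11 to 10.26 in 0PP and 9.96 to 10.14 in NP/Sed. From MP to LP 4 of the 8 fell (Col1a1, Col1a2, Col3a1 and Dpt), beside 1.91% of all genes that passed in either direction. From LP to 0PP 3 of the 8 rose (Col1a2, Col3a1 and Tcf21), beside 1.33%. Of the 8 endothelial and the 8 mural (vessel wall) cell markers, 0 passed from MP to LP. The endothelial mean was 9.12 to 9.22 in MP and 9.13 to 9.28 in LP. That of the mural cell markers was 9.46 to 9.59 in MP and 9.41 to 9.70 in LP. In pregnancy against exercise, Lum and Tcf21 of the fibroblast list fell, and of the 8 endothelial markers Cdh5 and Cldn5 fell, beside 4.08% of all genes. The mean of the endothelial markers was 9.31 to 9.45 in the exercise arrays and 9.12 to 9.28 in MP, LP and 0PP. The part of these cell types in the Igfbp3 and Igfbp7 differences was not tested.

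**Figure D3:**
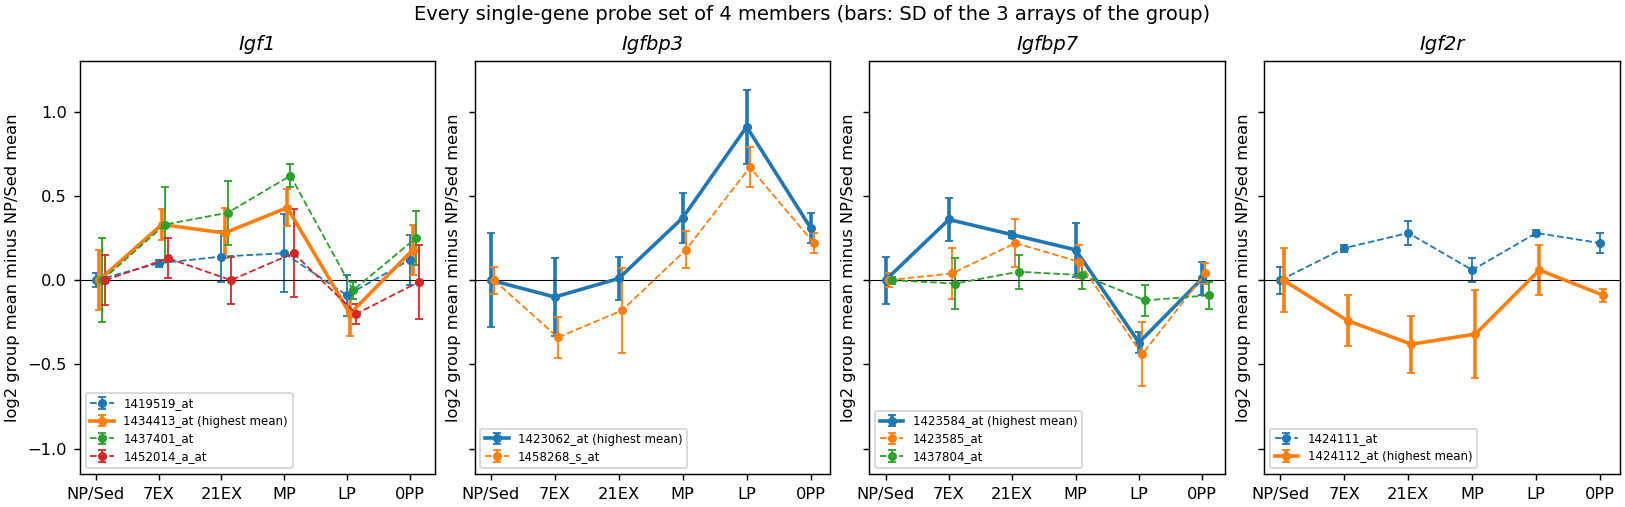
Group mean minus the NP/Sed mean (vertical axis, log2) for every single-gene probe set of Igf1, Igfbp3, Igfbp7 and Igf2r, by group (horizontal axes). Bars are the SD of 3 arrays, and the thick line is the probe set of highest mean. Both Igfbp3 probe sets peak in LP, at 0.91 and 0.67, and the Igf2r probe sets part in 21EX, at -0.38 and 0.29.

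Across the 18 arrays and 11600 genes with a mean of at least 5, the genes closest to Igfbp7 in pattern were Col4a2 (Pearson r = 0.971), Col4a1 (r = 0.967) and Bgn (r = 0.962). The first pair encodes the chains of basement membrane collagen and the third biglycan, a matrix proteoglycan. Col4a1 averaged 11.65 (SD 0.13) over the 3 arrays of 7EX. It averaged 11.45 (SD 0.14) over those of MP and 10.86 (SD 0.04) over those of LP. The Igfbp7 and Col4a1 arrays of LP were both below all other arrays. With r of at least 0.9 there were 4 genes for Igfbp7, and 0 for Igfbp3 and Igf1. These correlations describe the same 18 arrays, which share groups and processing.

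**Figure D4:**
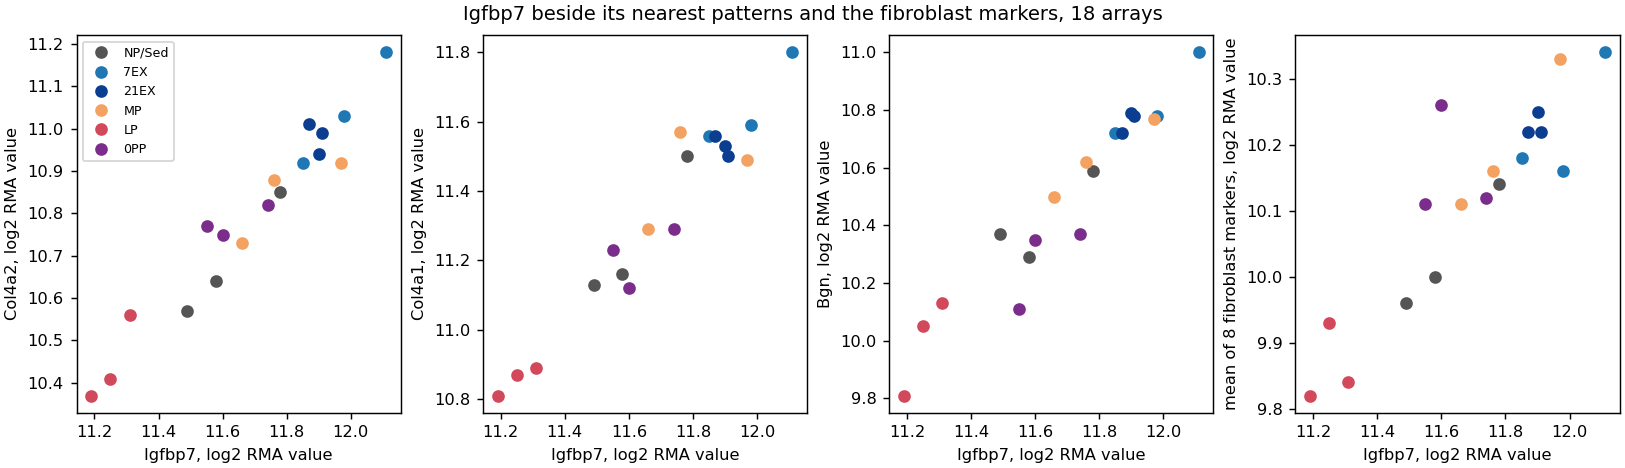
Log2 RMA value of Igfbp7 (horizontal axes) against Col4a2, Col4a1, Bgn and the mean of the 8 fibroblast markers (vertical axes), 1 point per array, coloured by group. The 3 LP arrays lie lowest on Igfbp7, 11.19 to 11.31, and hold the lowest Col4a1 values and fibroblast marker means, 9.82 to 9.93.

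For Igfbp3 the closest patterns were those of Mknk2 (r = 0.874), a kinase that acts on a translation initiation factor, Mmrn1 (r = 0.872), a protein of platelets and endothelium, and Rbp7 (r = 0.864), a retinoid-binding protein. Rbp7 had a mean of 8.71 (SD 0.13) in NP/Sed, 9.26 (SD 0.24) in MP, 9.63 (SD 0.08) in LP and 9.27 (SD 0.07) in 0PP. For Igf1 they were Gng11 (r = 0.843), a G protein subunit, Hddc3 (r = 0.839) and the mitochondrial ribosomal protein gene Mrpl34 (r = 0.839).

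Other genes of the system are given by list. Of 4 carriers outside the members, Igfbp1, Igfbp2, Igfals and Igfbpl1, 0 passed by limma in any of the 9 comparisons, at most 1 had an unadjusted p under 0.05 in any of them, and their medians lay between -0.07 and 0.07. The same counts hold for 7 genes of the growth hormone axis, which drives Igf1 in many tissues, with Ghr in LP at -0.15 ± 0.07 (adjusted p = 0.368) and Socs2 at 0.00 ± 0.12. They also hold for 3 genes around Igf2 and its RNA (Igf2os, Igf2bp1 and Igf2bp3). Igfbp1, Igfbp2 and Igf2os, with means of 3.33, 3.84 and 4.16 over the 18 arrays, lay below the array medians of about 5, as did Pappa and Pappa2 (4.65 and 3.66), so a count of 0 says little of these genes.

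Among 7 proteases and protease inhibitors considered beside the IGF-binding proteins, Htra1 and Prss23 fell in LP, beside 2.36% of all genes that passed there. Prss23, a secreted serine protease, read 7.59, 7.20 and 7.03 in LP, 7.68, 7.92 and 7.88 in NP/Sed and 8.0, 7.93 and 8.12 in MP. LP lay below both without overlap, and it fell by 0.55 ± 0.11 (adjusted p = 0.0154) against NP/Sed and by 0.74 ± 0.11 (adjusted p = 0.00288) against MP. It rose by 0.54 ± 0.11 from LP to 0PP (adjusted p = 0.0259). Pappa and Pappa2, which encode proteases that cleave IGF-binding proteins, passed in none of the comparisons. Htra1, which can cleave IGFBP5, fell by 0.34 ± 0.08 in LP (adjusted p = 0.0382).

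In pregnancy against exercise 3 of these 7 passed, beside 4.08% of all genes. Htra1 and Prss23 fell, by 0.21 ± 0.05 (adjusted p = 0.038) and 0.36 ± 0.07 (adjusted p = 0.00865). Stc1, a stanniocalcin and inhibitor of the PAPP-A protease, rose by 0.42 ± 0.08 (adjusted p = 0.00398). Of 12 receptor relatives and adaptors Irs2, which couples the IGF1 and insulin receptors to phosphoinositide 3-kinase, rose by 0.58 ± 0.12 in that comparison (adjusted p = 0.00998). For Htra1, Prss23, Stc1 and Irs2 this comparison was not refitted with the 3' minus 5' covariate or without LP. Both member calls were lost in those fits. Irs2 read 7.52, 7.17 and 8.08 in MP, 6.95, 6.88 and 7.63 in LP, and 6.90, 7.00 and 6.88 in 0PP. In NP/Sed it read 7.00, 6.78 and 6.76, in 7EX 6.64, 6.65 and 6.68, and in 21EX 6.45, 6.60 and 6.82. All MP arrays were above the controls, by 0.74 ± 0.19 on average (adjusted p = 0.06). Ptpn11, the phosphatase SHP2, rose by 0.42 ± 0.09 in LP (adjusted p = 0.0232). Insr, the insulin receptor, passed in none of the comparisons.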

How the data were processed

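Left ventricular RNA of 18 pools was measured on Affymetrix mouse genome arrays. The deposited values are log2 values, which the authors made with RMA (background correction, quantile normalization and summarization) across all arrays in R. They are intensities without counts, and nothing says whether pools shared litters or days. Of 45101 probe sets, 64 controls were left out. Groups are those of the labels.

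All 6 groups were fitted together in limma 3.58.1 (R 4.3.3) by two-sided moderated statistics (residual degrees of freedom 12, prior 6.45) with Benjamini-Hochberg adjustment over 45037 probe sets within each of 9 comparisons and for the F-test. The script was tested on simulated data. The probe set of highest mean stands for a gene, and all other probe sets of a member were examined. All 9 members, pathway genes past an adjusted p of 0.05 in some comparison, and the 3 closest patterns of the 3 members with the smallest F-test p are named by rule. Ghr, Socs2, Pappa, Pappa2 and Insr were named after their values were seen. The members and lists were chosen with earlier results of these data known. RefSeq upstream windows (GRCm38.p6) came from a table in which all 9 members matched. Alternatives were each array left out, a fold limit, a Cyber-T style test, an intensity trend, fits of only the compared groups, median centring, repeated quantile normalization, a mean of at least 5, other choices of probe set, a replicate block and a 3' minus 5' covariate.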

Additional observations from a re-analysis of the deposited data

Results flagged for a closer look

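Igf1 and Igfbp7 stood out because their values differed directly between stages of pregnancy, by -0.63 and -0.55 from MP to LP. Igfbp3 differed between LP and 0PP, by -0.60, with a call that most single arrays could end. Between the pregnancy groups and the exercise groups Igfbp3 differed by 0.58 and Igfbp7 by -0.38, and neither passed with the 3' minus 5' covariate or with LP left out of the mean.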

How the results depend on the processing

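The 6 member differences that passed kept their direction in all 108 fits without 1 array and in 66 other fits. Of 75 that did not pass, 42 of 1350 and 37 of 825 fits changed sign. Without 1 array, the members passing ranged from 3 to 5 in the F-test, 0 to 2 in MP, 1 to 2 in LP, 2 to 4 in LP against MP, 0 to 2 in 0PP against LP, 2 to 2 in pregnancy against exercise and 0 to 0 elsewhere. In MP they were 2 without MP array 1 (Igf2, Igf2r), 1 without NP/Sed array 3 (Igf1) and 1 without 0PP array 1 (Igfbp5). In LP, Igfbp7 was added without 7EX array 1, MP array 1 or MP array 2. LP against MP gave 4 without MP array 1. In 0PP against LP, Igfbp7 was added without NP/Sed array 1 or MP array 2.

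The count in 7EX was 1 with an intensity trend or Cyber-T style test. In 21EX it was 2 with the Cyber-T style test, 1 with a mean of at least 5 and 2 at the probe set of smallest F-test p, where Igf2r reversed to 0.285 in 21EX. In MP it was 1 with a trend, 2 with the Cyber-T style test and 1 with a mean of at least 5. In LP it was 2 with each of these 3, and 2 with repeated quantile normalization, the mean of the probe sets, the probe set of smallest F-test p or the 3' minus 5' covariate. LP against MP gave 0 with the fold limit or only the groups compared, and 4 with the Cyber-T style test or the mean of the probe sets. 0PP against LP gave 0 with the fold limit, only the groups compared, median centring or the probe set of smallest F-test p, and 2 with a trend, the Cyber-T style test, a mean of at least 5 or the mean of the probe sets. Pregnancy against exercise gave 0 with the fold limit, with the 3' minus 5' covariate and without LP, an alternative chosen after seeing the data. The Cyber-T style test was not run for it. No share of all genes was taken for these alternatives, so their counts are not read as a result about the members. The cause of these shifts was not tested. Median centring and repeated quantile normalization turned no passing value.

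Arrays of the same replicate number did not deviate together (mean r -0.027 over 45 pairs, 0.014 over 90 pairs of other numbers, and 2 of 18 arrays closest to their own number), so the numbers pair nothing. With a replicate block 0PP against LP gave 0 members (Igfbp3 adjusted p = 0.07), and no other count of members by comparison changed.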
